A study of Zea mays with 4 samples.

Results

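Glutathione S-transferase (GST) genes and the genes of glutathione synthesis were described in maize kernels of the bt2 mutant and of the wild type. Genes were taken where the array's symbol, or a RefSeq symbol or synonym, begins with gst or gsh and a number, which gave 33 genes with 37 probe sets among 1108 genes named on the array. The 10 genes described as members were the brightest of them over the 4 arrays, with gst12 and gst23 always included, and each had 1 probe set. They are gsh1, gst1, gst2, gst5, gst12, gst17, gst19, gst23, gst30 and gst37. At the edge of that choice, gst37 averaged 8.25 and was in, while GST3 averaged 7.08 and was out. gst12 averaged 5.0 and was in by name.

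Levels were measured on 1-colour Affymetrix maize arrays, with 2 kernel samples carrying the allele bt2-H2328 and 2 wild-type samples. All were collected 35 days after pollination from plants in a greenhouse, without treatment. RNA input was 17 µg for mutant 2 and 20 µg for the other samples. The study asked whether kernels that cannot make starch turn on other pathways that use sucrose. The bt2 gene codes for the small subunit of the starch enzyme ADP-glucose pyrophosphorylase. The sources used here do not give the genetic background, the zygosity of the mutant kernels, or whether the 2 samples of a group came from separate plants. The p-values therefore describe only how far these samples differ, and that spread could be technical.

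Glutathione is a tripeptide of glutamate, cysteine and glycine that carries most of the non-protein thiol of a plant cell. Its synthesis begins with glutamate-cysteine ligase, encoded by gsh1, and ends with glutathione synthetase, encoded by gsh2. GSTs join glutathione to reactive or foreign molecules, and ABC transporters then move the conjugates into the vacuole. Maize GSTs are best known for detoxifying herbicides, and safeners, compounds that protect the crop from herbicides, raise the levels of several of them.

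Every value is a log2 GCRMA level, a scale on which a difference of 1.00 is a doubling, and the differences given are mutant minus wild type. The bt2 probe set read 10.13 and 10.12 in the mutants, against 12.67 and 12.64 in the wild types, 5.78-fold lower in the mutants (limma adjusted p 0.00514). Across 10458 probe sets with a value of 4 or more on at least 2 arrays, 43.2% passed a limma test at an adjusted p of 0.05, 21.0% higher and 22.1% lower in the mutant. Whether these calls depend on single arrays cannot be told from their number with 1 array left out. Such a fit leaves 1 sample in a group, and calls are then lost for lack of a replicate as well. The bt2 difference itself ran from -2.54 to -2.52 with single arrays left out. The poly-A control RNAs, which are not from maize, read 1.20 higher on the mutant arrays, and centring the arrays on them shifts every difference by -1.23. On that scale 2.91% of probe sets passed as higher and 78.7% as lower. In maize control genes, the 5′ minus 3′ value was lower in the mutants in 5 of 6 pairs, with a median of -0.51.

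Among the members, gsh1 and gst5 were higher in the mutant, though below 0 once centred on the poly-A controls, and gst1 was lower. gst23 read higher and gst12 read far lower, and the other 5 did not pass. gst12 and gst23 were kept for their readout in this same comparison, so their values are a description with no test. Of the 8 members chosen by brightness, 2 passed as higher and 1 as lower, against the 21.0% and 22.1% of all probe sets. Their groups did not overlap in 6 of 8, against 78.5% of all probe sets. In 2 of these the mutants lay above and in 4 below, against 39.3% and 39.2% of all probe sets. These counts were close to what the array-wide shares give for 8 genes, and nothing particular to the family is read from them. Centred on the poly-A controls, none of the 8 passed limma as higher and 7 passed as lower, with 7 at an unadjusted p under 0.05 in the same fit. The median difference of the 10 members was -0.18, beside -0.01 for all kept probe sets.

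**Figure D1:**
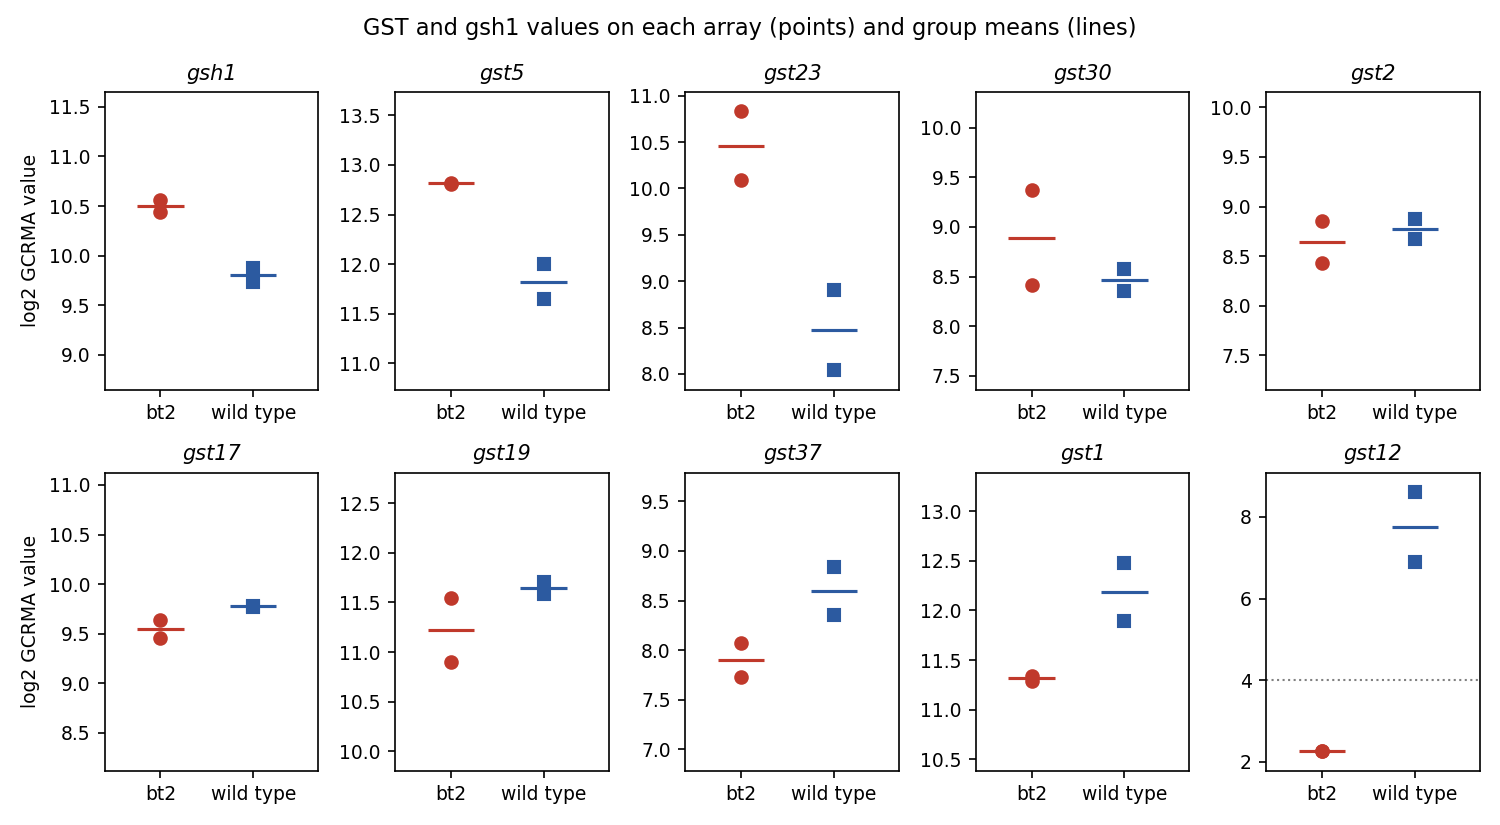
log2 GCRMA value of each member gene (y axis, its range differs between panels) in bt2 and wild-type kernels, with 1 point per array and lines at the group means. The groups are apart in 8 of the 10 panels, beside 78.5% of all kept probe sets. The 8 include gst12 and gst23, which were kept for their readout in this comparison. The dotted line in the gst12 panel marks the log2 value of 4 under which a probe set was treated as not measured.

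Of the genes of glutathione synthesis, gsh1 passed the test on the array-wide scale and gsh2 did not. gsh1 (LOC542026) read 10.56 and 10.44 in the mutants, against 9.88 and 9.74 in the wild types. All mutant arrays lay above all wild-type arrays, and arrays of 1 group lay within 0.14 of each other. It rose 1.61-fold, by 0.69 (SE 0.12, 2 arrays a group, limma adjusted p 0.0148). On the poly-A scale it instead passed as lower, at -0.54 (limma adjusted p 0.0338). Leaving out single arrays gave differences of 0.62 to 0.76, with adjusted p values of 0.0651 to 0.106. gsh2 (LOC542055), outside the 10 by its level, read 6.15 and 6.16 in the mutants, against 6.35 and 6.06 in the wild types. These groups overlapped, at a difference of -0.05 (SE 0.18) and a limma adjusted p of 0.839. After quantile normalization the difference was 0.09, with a limma adjusted p of 0.729. Whether gsh1 and gsh2 differ from each other in response was not tested.

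On the array-wide scale, gst5 and gst1 passed in opposite directions. gst5 (LOC542734) read 12.82 and 12.81 in the mutants, against 12.00 and 11.65 in the wild types. Its mutant arrays were nearly equal and both lay above the wild types. It rose 1.99-fold, by 0.99 (SE 0.14, limma adjusted p 0.0118), and read -0.24 on the poly-A scale. gst1 (LOC542366) encodes GST I, the classical herbicide-conjugating enzyme of maize. It read 11.29 and 11.34 in the mutants, against 11.89 and 12.48 in the wild types, again without overlap. The difference was -0.87 (SE 0.22), 1.83-fold lower in the mutant, with a limma adjusted p of 0.0358, and -2.10 on the poly-A scale. With wild type 2 left out it was -0.57, against -1.17 without wild type 1. The adjusted p ran from 8.20e-08 to 0.192 over the alternatives, and was 0.0837 without the filter on low values and 0.0516 with the replicate number as a block.

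The remaining members chosen by brightness gave no call. gst37 (LOC541846) was the nearest to one. It read 7.73 and 8.07 in the mutants, against 8.35 and 8.84 in the wild types, with no overlap, a difference of -0.69 (SE 0.23) and a limma adjusted p of 0.0725. With the replicate number as a block its adjusted p was 0.0435, within a range of 3.09e-06 to 0.288 over all alternatives. gst19 (LOC541834) read 10.90 and 11.55 in the mutants, against 11.71 and 11.59 in the wild types. Mutant 1 was the low array there, and the mutants differed by more than the 0.42 that separates the group means, with a limma adjusted p of 0.215. gst17 (LOC542543) read 9.46 and 9.64 in the mutants, against 9.78 and 9.77 in the wild types, at a difference of -0.22 and a limma adjusted p of 0.191. Its groups did not overlap, but its mutant arrays differed by 0.18.

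Overlapping groups were seen in 2 members. gst2 (LOC542311), whose synonym GSTIV names a safener-inducible enzyme, read 8.43 and 8.85 in the mutants, against 8.67 and 8.88 in the wild types. The difference was -0.13 (SE 0.19), with a limma adjusted p of 0.601, and it was 0.08 without mutant 1. gst30 (LOC541841) read 8.41 and 9.37 in the mutants, against 8.35 and 8.58 in the wild types. Mutant 2 alone stood high, the difference of 0.43 (SE 0.35) had a limma adjusted p of 0.369, and it was -0.05 without mutant 2 and -0.81 on the poly-A scale.

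gst23 (LOC541845) had the highest difference of the members. It read 10.09 and 10.83 in the mutants, against 8.90 and 8.04 in the wild types, so that every mutant array exceeded every wild-type array although both groups were spread. The means were 10.46 ± 0.52 in the mutants and 8.47 ± 0.61 in the wild types (SD, n = 2 each), a difference of 1.99 or 3.97-fold. It was the only member still above 0 on the poly-A scale, at 0.76, and leaving out single arrays gave 1.56 to 2.42. Among 820 probe sets of named genes outside the family, the 3 genes nearest to its pattern were PAL1, lox3 and pgr5. Likeness was the Euclidean distance between the 4 log2 values after each probe set was centred on its own mean, and it was 0.31, 0.33 and 0.47. PAL1, a phenylalanine ammonia-lyase that opens phenylpropanoid synthesis, read 10.58 and 11.53 in the mutants, against 9.29 and 8.32 in the wild types. The lipoxygenase gene lox3 read 11.71 and 12.69 in the mutants, against 10.79 and 10.13 in the wild types. In PAL1 and lox3, as in gst23, mutant 2 was the highest and wild type 2 the lowest array, an order that the search itself selected for. pgr5 read 5.68 and 6.49 in the mutants, against 3.97 and 3.61 in the wild types. It passed the filter of 4 through the mutants alone. Values under 4 have no order, so its rank has no meaning beyond this description.

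gst12 (LOC541830) was the opposite extreme. Its probe set read 2.26 and 2.27 in the mutants, against 6.89 and 8.60 in the wild types. Both mutant values lie under 4, the value below which a probe set was treated as not measured, and the probe set passed the filter through the wild types alone. Only a bound can be given: with 4 put for the mutants, gst12 was at least 13.4-fold lower there. The wild types themselves differed by 1.71, the widest gap within a group among the members. The difference of -5.48 became -3.49 once 16 was added to the linear values. In samples of whole kernels, fewer cells of a type and less RNA per cell cannot be told apart.

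**Figure D2:**
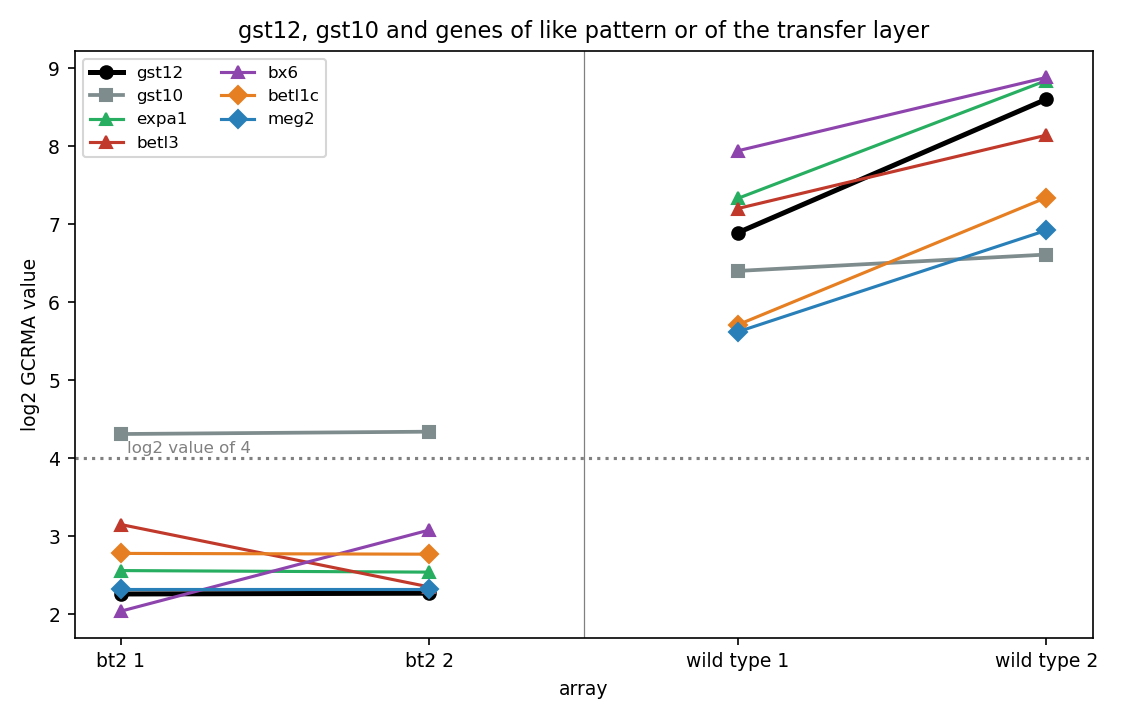
log2 GCRMA values (y axis) of gst12, its neighbour gst10, the 3 genes nearest to gst12 in pattern (triangles) and 2 markers of the basal endosperm transfer layer (diamonds) on the 4 arrays (x axis). The mutant values of gst12 are 2.26 and 2.27, under the dotted line at 4, and wild type 2 is the higher wild-type array for every gene drawn.

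The 3 named genes nearest to gst12 were expa1, betl3 and bx6, at distances of 0.15, 0.97 and 0.98 over the 4 arrays. The expansin gene expa1, whose product loosens cell walls, read 2.56 and 2.54 in the mutants, against 7.33 and 8.84 in the wild types. betl3, a marker of the basal endosperm transfer layer through which the kernel takes up sugars, read 3.15 and 2.35 in the mutants, against 7.20 and 8.14 in the wild types. bx6, of benzoxazinoid synthesis, read 2.04 and 3.08 in the mutants, against 7.94 and 8.88 in the wild types. In all of them wild type 2 read higher than wild type 1 and the mutant values were under 4. Values under 4 have no order, yet they enter the distance, so the ranks of betl3 and bx6 have no meaning beyond this description.

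Measurable markers of the transfer layer mostly read lower in the mutant, as gst12 did. Of 11 marker genes with 13 probe sets, 7 probe sets were measurable. Of these, 6 passed limma as lower, 0 as higher and 1 did not pass, beside 22.1% lower and 21.0% higher on the whole array. Those of betl3, betl1c, meg2 and bap1-b were under 4 in both mutants and passed the filter through the wild types alone. Their direction was thus fixed, and the count is only a description. The markers measured in both groups, betl4 and meg6, differed by -2.21 and -0.65. The summed linear level of the 13 probe sets was 663 and 608 in the mutants, against 1309 and 1965 in the wild types. The brightest, meg6, weighs most in these sums, at 9.09 and 8.83 in the mutants, against 9.43 and 9.80 in the wild types. They also add 5 probe sets under 4 on all arrays. The transporter gene mrpa1, which shares the synonym MRP1 with a transfer layer regulator, was left out of this list after its values were seen. With mrpa1, which passed as higher, the list had 1 higher and 6 lower of 8 measurable probe sets, and its sum was 1302 and 1307 in the mutants, against 1357 and 1996 in the wild types. The invertase gene incw2, which defines this layer earlier in development, was under 4 on all arrays. betl1c exceeded in wild type 2 its level in wild type 1 by 1.63, and meg2 by 1.30 and 1.23 in its probe sets. Markers of the starchy endosperm summed to 76638 and 66966 in the mutants, against 184895 and 181128 in the wild types, with 12 of 15 measurable probe sets lower and 0 higher. Zein storage protein genes weigh most in these sums. The brightest, z1C1_4, read 13.60 and 12.84 in the mutants, against 15.25 and 15.20 in the wild types. The starch gene wx1 differed by 0.18 and did not pass. Embryo markers summed to 117254 and 112231 in the mutants, against 97588 and 89761 in the wild types, with 3 of 7 higher and 0 lower. These 3, rab17, EMB5 and the brightest probe set of vp1, rose by 0.41, 0.43 and 0.46. On the poly-A scale they turned to -0.82, -0.80 and -0.77 and passed limma as lower. A haemoglobin gene that shares the synonym GLB1 was left out of the embryo markers. With it 4 of 8 were higher, but it passed the filter through the mutants alone. Pericarp and maternal markers summed to 591 and 676 in the mutants, against 1068 and 1069 in the wild types, with 2 of 4 lower and 1 higher. The higher one was ts2, at least 5.74-fold, which passed the filter through the mutants alone. Aleurone markers summed to 4306 and 4209 in the mutants, against 4498 and 4201 in the wild types, with dek1 3.11-fold higher, Nkd1 2.02-fold lower and 3 of 5 not passed. Each of these marker counts stands beside 21.0% higher and 22.1% lower among all kept probe sets. The part of tissue makeup in the GST values was not tested.

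Wild type 1 tended to lie nearer to the mutants than wild type 2. This held for 7 of the 10 members, gst17, gst19 and gst30 excepted, and for 68.5% of all kept probe sets. gst12, gst1 and gst37 were lower in wild type 1 than in wild type 2, and gst23, gst5 and gsh1 were higher there, each in the direction of its mutant values. The labels name no difference between the wild-type samples other than their number.

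Some family genes are neighbours in the RefSeq gene order (assembly Zm-B73-REFERENCE-NAM-5.0). The files name no genome build, so only the order is used. gst11 lies next to gst12, and gst10 follows with 1 protein-coding gene between. gst10 (LOC541828) read 4.31 and 4.34 in the mutants, against 6.40 and 6.61 in the wild types. It fell by 2.18 (4.53-fold, SE 0.17, limma adjusted p 0.00699). The mutant values of gst10 lie just above 4, and its difference was -1.57 once 16 was added to the linear values. Thus the probe sets of gst10 and gst12 both read lower in the mutant, while that of gst11 stayed between 2.21 and 2.58 on all arrays and gives no level. Near-identical copies of a GST gene can share probes, so a value may hold signal of a neighbour.

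A second run of neighbours is gst37, GST39, GST38 and gst30, with no protein-coding gene between any of them. gst37 and gst30 are described above, at -0.69 and 0.43. GST39 (LOC541848) read 6.73 and 8.33 in the mutants, against 6.15 and 4.77 in the wild types, which puts the mutants 2.07 higher (SE 0.73, limma adjusted p 0.0803, not passed). Both groups of GST39 were widely spread, with 1.60 between the mutants. GST38 read 3.09 and 3.05 in the mutants, against 3.24 and 3.26 in the wild types, under the value of 4. No test of differences between neighbours was made.

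Outside the 10 members, 6 of 23 genes had a measurable probe set, and the calls among them were falls. Of their 8 probe sets, 5 passed limma as lower, 0 as higher and 3 did not pass, beside 22.1% lower on the whole array, and the median difference was -1.73. The 5 falls came from 3 genes, gst10, gst31 and gst41. gst31 (LOC541842) gave 3 of them. Its brightest probe set read 5.11 and 5.40 in the mutants, against 6.90 and 8.04 in the wild types, and it differed by -2.21 (SE 0.42, limma adjusted p 0.0190). The others differed by -2.13 and -1.76, and a further probe set of gst31 was under 4 on all arrays. Those at -2.13 and -1.76 read 4.14 and 4.11, and 3.30 and 4.02, in the mutants, at or near the floor of 4. Their differences were -1.48 and -1.03 once 16 was added to the linear values. The mutant values of gst10 also lie near 4, so the size of these falls and the median are uncertain.

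gst41 (LOC541849) read 5.96 and 6.03 in the mutants, against 7.81 and 7.59 in the wild types. Its arrays agree closely within each group, and it was 3.26-fold lower in the mutants, at -1.70 (SE 0.16, limma adjusted p 0.00764). GST3 (LOC541990), a herbicide-conjugating enzyme gene, read 6.86 and 7.80 in the mutants, against 7.05 and 6.62 in the wild types. It overlapped, at 0.50 (SE 0.37) and a limma adjusted p of 0.330, and read -0.73 on the poly-A scale. The other 17 genes, with values between 1.72 and 4.23, gave no level that can be compared.

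**Figure D3:**
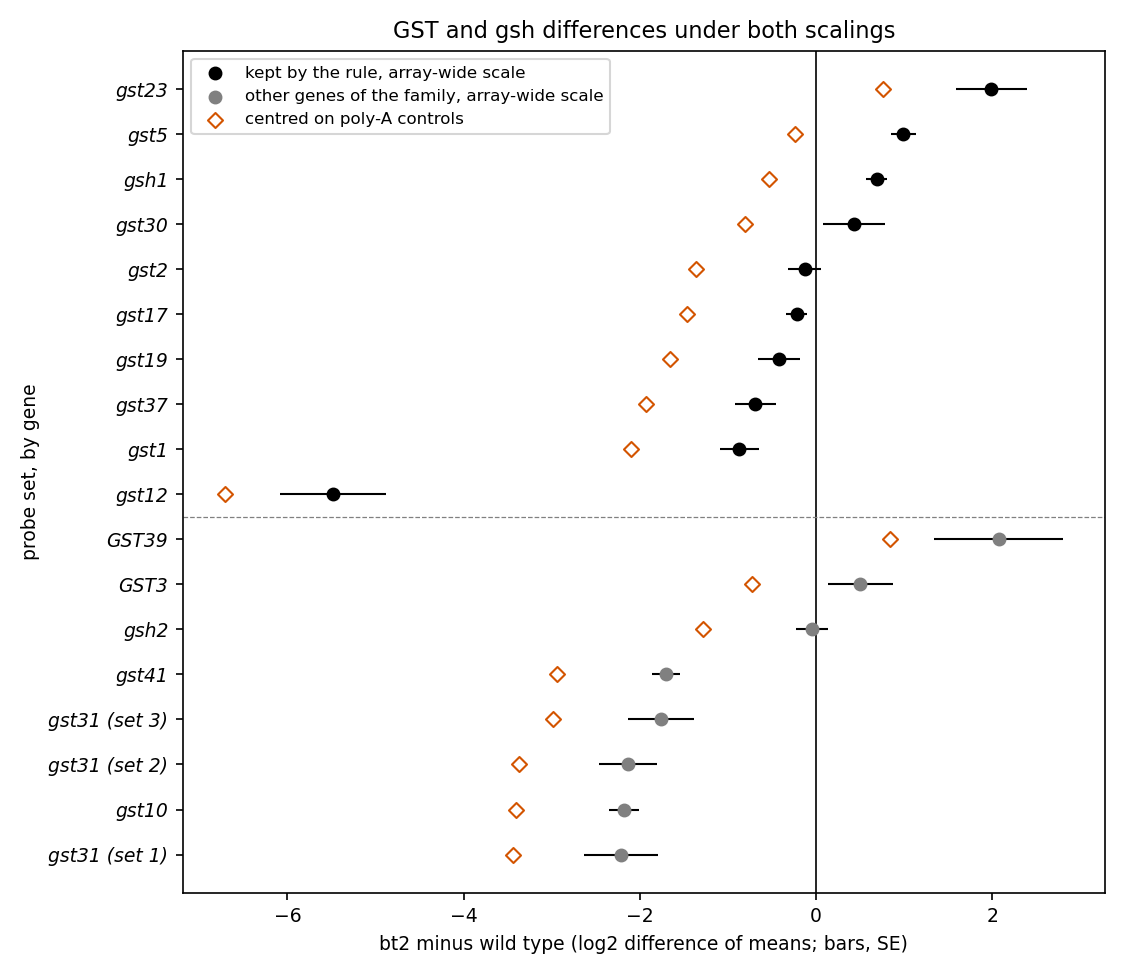
Difference of bt2 minus wild type in log2 (x axis) for each measurable GST and gsh probe set, with the members above the dashed line and other genes of the family under it; bars are the SE of the fit with n = 2 per group. Circles use the array-wide scale and diamonds the poly-A controls, which move every difference by -1.23 and leave only gst23 and GST39 above 0, at 0.76 and 0.84.

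In the lists of cysteine supply and of safener response and transport, sat1, 1 probe set of sir, saf1, opr1, mrpa1 and MRP2 passed as higher, MRP2 turning to -0.05 on the poly-A scale. In a list of sulfate uptake and cysteine synthesis, 2 of 10 measurable probe sets passed limma as higher, 0 as lower and 8 did not pass, with a median of 0.02. Beside this, 21.0% of all kept probe sets passed as higher and 22.1% as lower. sat1, a serine acetyltransferase that makes the precursor of cysteine, read 11.57 and 11.25 in the mutants, against 8.65 and 7.81 in the wild types. It rose 9.06-fold, by 3.18 (SE 0.32, limma adjusted p 0.00783), and stood at 1.95 on the poly-A scale. Its relatives sat2 and sat3 differed by -0.07 and 0.03 and did not pass. sir, a sulfite reductase of the same supply route, rose by 1.56 in its brightest probe set (limma adjusted p 0.0191, 0.33 on the poly-A scale). Its other probe sets disagreed, at -0.35 and 0.00. The cysteine synthase gene cys2 differed by 0.29, and aprl3, named after sulfate reductases, by -0.29 and 0.18 in its probe sets, none of which passed.

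In the list of safener response and vacuolar transport, 4 of 7 measurable probe sets passed limma as higher, 0 as lower and 3 did not pass. The whole array had 21.0% higher and 22.1% lower. The median difference of the list was 1.18, beside -0.01 for all kept probe sets. saf1, a safener-induced gene whose product is related to GSTs, read 7.86 and 8.39 in the mutants, against 3.88 and 3.23 in the wild types. It was at least 17.4-fold higher with 4 in place of the wild-type values. As it passed the filter through the mutants alone, its direction was fixed, and its call is only a description. The ABC transporter gene mrpa1 rose by 4.15 and stood at 2.92 on the poly-A scale. MRP2, of the same transporter family, read 7.66 and 7.64 in the mutants, against 6.93 and 6.01 in the wild types. Its difference of 1.18 was just inside limma's adjusted threshold of 0.05 (0.0688 with the replicate block), and it read -0.05 on the poly-A scale. opr1, an oxophytodienoate reductase, rose by 4.81 and stood at 3.58 there. 1 of its wild-type arrays was under 4. The list mixes conjugate transport with oxylipin reductases, and lpa1, taken in by its MRP synonym, is known for phytate, not for conjugates.

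Beside the 43.2% called on the whole array, the lists of redox partners of glutathione are too short to set apart. In the list of glutathione recycling and the ascorbate cycle, none of 2 measurable probe sets passed limma, with 1 at an unadjusted p under 0.05. gsr1, a glutathione reductase, read 8.26 and 8.16 in the mutants, against 7.78 and 7.80 in the wild types, at 0.42 with a limma adjusted p of 0.0569 and -0.81 on the poly-A scale. The ascorbate peroxidase gene apx2 differed by -0.22. In the list of thioredoxins and peroxiredoxins, nrx1, a nucleoredoxin, fell by 1.09 (SE 0.12, limma adjusted p 0.00842), and 3 of 4 measurable probe sets did not pass. These were trxh1 at -0.38, trh2 at 0.22 and PER1 at 0.04. The class III peroxidase genes pox1, pox2, PER42 and PER66, caught by their symbols, were under 4 on all arrays.

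Catalases and superoxide dismutases, which remove hydrogen peroxide and superoxide, gave 1 rise and 1 fall in 7 measurable probe sets by limma. cat2 fell by 1.01 (limma adjusted p 0.0155). cat1 rose by 0.95 in its brightest probe set (limma adjusted p 0.0165), which read -0.28 on the poly-A scale and -0.59 in another probe set that did not pass. sod3 and sod2 differed by 0.17 and 0.19 and did not pass. Over all 5 lists, 7 of 30 measurable probe sets were higher, 2 were lower and 21 did not pass, beside 21.0% and 22.1% on the whole array. The 7 include saf1, which was measurable in the mutants alone.

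**Figure D4:**
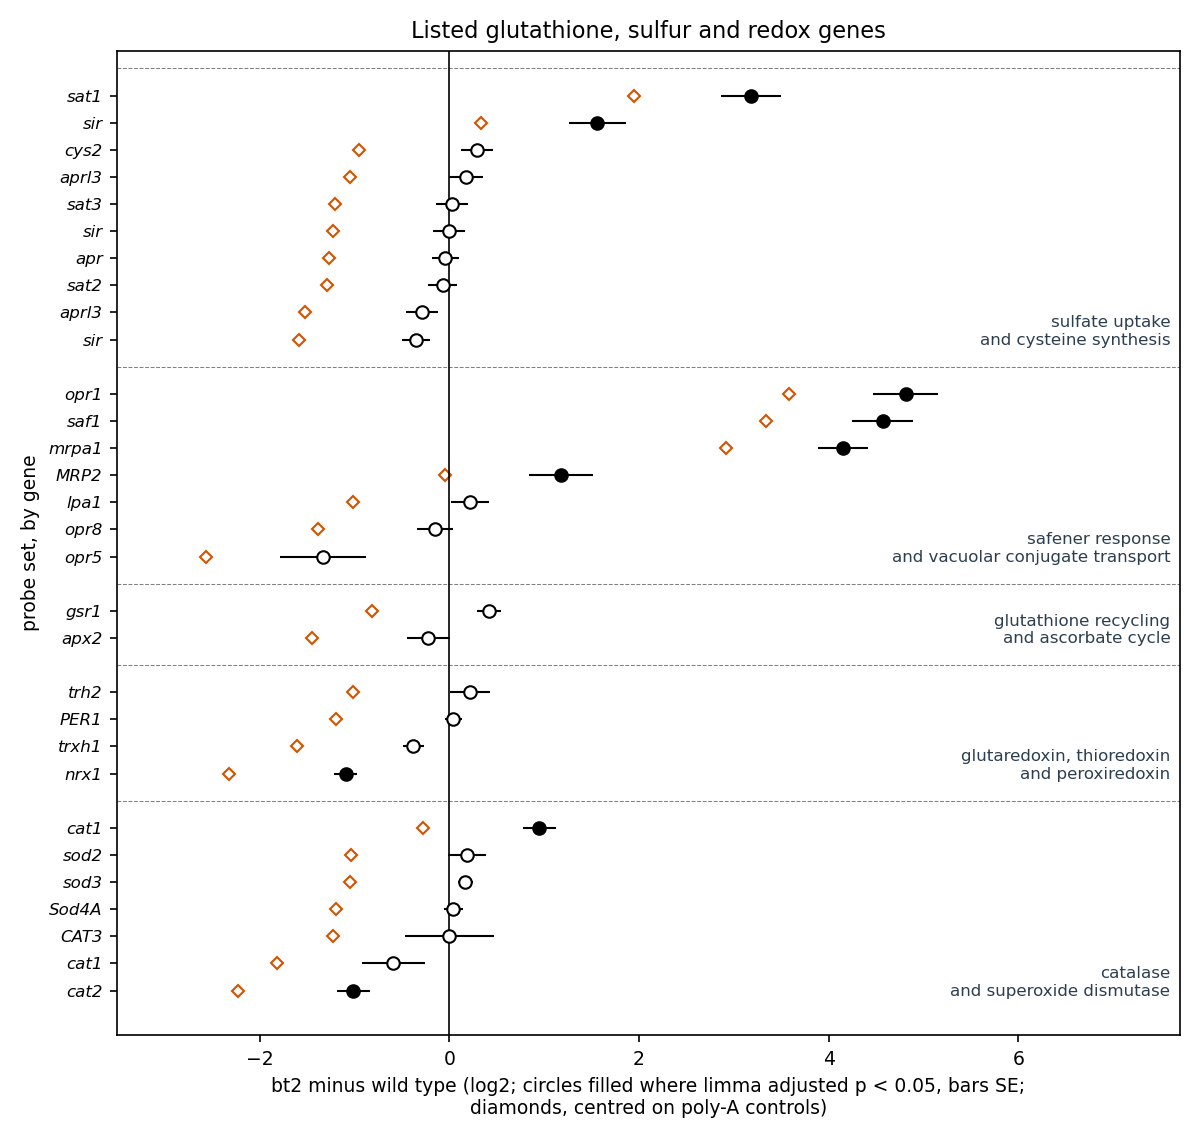
Difference of bt2 minus wild type in log2 (x axis) for the measurable probe sets of 5 gene lists, 1 row per probe set; circles are filled where the limma adjusted p was under 0.05, bars are SE, and diamonds give the difference centred on the poly-A controls. sat1, opr1 and mrpa1 lie far to the right under both scales, at 3.18, 4.81 and 4.15 on the array-wide scale, and saf1 is drawn at its measured difference although its wild-type values are under 4 and give only a bound, at least 17.4-fold.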

How the data were processed

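The authors deposited log2 expression values per probe set for 4 arrays, and the submitters' processing notes name GCRMA as the tool. The log base was read from the values. The sources used here give neither its version nor whether the arrays were normalized together. Of 17734 probe sets, 113 controls and 1 without values were left out. The platform annotation, which is old, gave 1 gene to 1452 probe sets, several to 1 and none to 16167, and RefSeq identifiers matched 1377 of the 1452. Probe sets were kept where 2 arrays or more reached a log2 value of 4. The comparison of mutant with wild type used R 4.3.3 and its package limma 3.58.1 (lmFit, trended eBayes, two-sided, Benjamini-Hochberg over 10458 probe sets, threshold 0.05), and the fit was tested on simulated data. For a group with all arrays under 4, a fold is a bound against 4. Members and gene lists were chosen with earlier results of these data known. Lists were matched by symbol or synonym and counted by probe set, and up to 4 genes of each were named by smallest p, with all members, and the 3 nearest patterns of gst12 and gst23. Other genes of the family and transfer layer markers were named after their values were seen. Alternatives changed the filter, the variance model, the normalization, the pseudocount, the replicate block and each array left out in turn. In the last, the lone sample of a group was assumed to vary like the other group. Same-numbered samples deviated together at r = 0.0213 over probe sets, which does not show pairing. Plots came from Python 3.11.15 with matplotlib 3.10.9. Precision is limited by having 2 arrays a group. No sequence is shown, and no sequence table was used.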

Additional observations from a re-analysis of the deposited data

Results flagged for a closer look

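The array's poly-A control probe sets enter no comparison of genes. In 36 of 36 such probe sets the mutants read higher than the wild types, with a median log2 difference of 1.20, while the hybridisation controls differed by 0.13. The poly-A probe sets read only a few control RNAs and are not independent.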

How the results depend on the processing

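Centred on the poly-A controls, 304 probe sets were higher and 8232 lower, 0 of the 8 brightness-chosen members were higher (7 had an unadjusted p under 0.05 in that limma fit) and 7 lower, and 4 listed probe sets were higher and 23 lower. The differences of gst5, gsh1, gst30 and GST3 turned to -0.24, -0.54, -0.81 and -0.73 there, while gst23 read 0.76 and gst12 -6.71. The poly-A scale shifts all differences alike by construction. Without the filter, 3484 probe sets were higher, and 0 of the 8 members were lower by limma with 3 at an unadjusted p under 0.05. Leaving out single arrays gave 0 to 599 higher and 0 to 596 lower probe sets, 0 to 1 higher and 0 to 1 lower members, and 0 to 6 higher and 0 to 0 lower listed probe sets. In the limma fits without 1 array, 3 to 4 of the 8 members and 9 to 10 listed probe sets had an unadjusted p under 0.05. With single arrays left out, gst2 ranged from -0.34 to 0.08 (turning without mutant 1), gst30 from -0.05 (without mutant 2) to 0.91, and gsh2 from -0.19 to 0.10 (turning without wild type 1). gsh2 was also 0.09 after quantile normalization. None of these 3 had passed. The cause of these turns was not tested. With the replicate number as a block, which only shares a number here, 1620 probe sets were higher and 1824 lower, 2 members were higher and 1 lower, and 6 listed probe sets were higher and 2 lower. Of the 16 family probe sets with a test, 14 kept their side of the threshold under the block, the exceptions being gst1 and gst37. All 16 kept it with no variance trend, as did the 14 tested with the stricter filter. With 2 arrays per group, values near 4 and differences close to the spread between arrays cannot be resolved.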
